A study of Mus musculus with 12 samples.

Results

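The Hedgehog pathway genes described here are Ptch1, Boc, Gas1, Hhip, Smo, Sufu, Gli1, Gli2 and Gli3. They were found by gene symbol, at 1 entry each, in a table of TPM values, a length-corrected measure of transcript abundance, for 55487 mouse genes. Of the 9 genes, 8 passed the filter of at least 1 TPM in at least 2 of 12 libraries, as did 15968 genes in all, and Hhip did not. Gli1 reached 1 TPM in 11 libraries, and the other 7 genes that passed did so in all 12.

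In Hedgehog signaling, a secreted ligand (Shh, Ihh or Dhh) binds the receptor Ptch1, which otherwise holds the membrane protein Smo inactive. Active Smo acts at the primary cilium and releases the Gli transcription factors from Sufu. Gli1 and Ptch1 are themselves target genes, and their transcripts are a common readout of the pathway. In mesenchymal cell lines, ligands or agonists of the pathway are known to restrain adipocyte formation.

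RNA was sequenced from 3T3-L1, a fibroblast line of the mouse whose cells become adipocyte-like after induction with IBMX, dexamethasone and insulin (MDI). A scrambled hairpin as control (shScram) or 1 that targets Fto, the gene of an m6A demethylase (shFto), had been introduced with a lentiviral vector under the U6 promoter, and all cells had been selected with puromycin. Uninduced preadipocytes (Pre), cells at mitotic clonal expansion (MCE) and cells after differentiation (Diff) were collected from both lines, which gave 6 groups of 2 libraries. The sources used here do not say which Fto hairpin the shFto libraries came from. Nothing says that the 2 libraries of a group came from separate cultures, so the p-values measure only the spread between these libraries, which may be technical. TPM is corrected for transcript length and scaled to the same total in each library, so levels of different genes can be compared, but the sequencing depth is unknown. Fold changes are given as differences of log2(TPM + 1), and the added 1 makes them too small where TPM is low. Throughout, a change was called at an adjusted p under 0.05 (limma, Benjamini-Hochberg over 15968 genes, two-sided). Counts at an unadjusted p under 0.05 alone are given without the share of all genes at that threshold. They are therefore not comparable with the shares of all genes called.

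Fto checked the labels of the lines. At Pre, Fto stood at 52.7 and 58.3 TPM with shScram against 5.51 and 5.55 TPM with shFto. At MCE it stood at 59.1 and 55.7 TPM against 6.32 and 6.03 TPM, and at Diff at 73.5 and 70.8 TPM against 7.47 and 7.05 TPM. Each shFto library was thus below each shScram library. The value of 73.5 TPM belongs to shScram Diff replicate 1, whose title names shScram while its treatment entry names the knockdown. It was grouped by its title.

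A library of the control group at Pre stood apart. Across genes, log2(TPM + 1) of the 2 shScram Pre libraries correlated at r = 0.939, against 0.990 to 0.993 in the other 5 groups, and the gap between replicates varied with gene GC content (rank correlation -0.69, against -0.20 to 0.36 in the other groups). Each of the 8 genes that passed was lower in shScram Pre replicate 1 than in replicate 2, by 0.30 to 1.52 on the log2(TPM + 1) scale with a median of 0.80. Within the other groups, the largest such difference of these genes lay between 0.19 and 0.47. Results are therefore given with and without shScram Pre replicate 1. Because this pair adds to the spread shared by all comparisons, leaving the library out also raised the share of genes called in comparisons that do not use it.

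**Figure D1:**
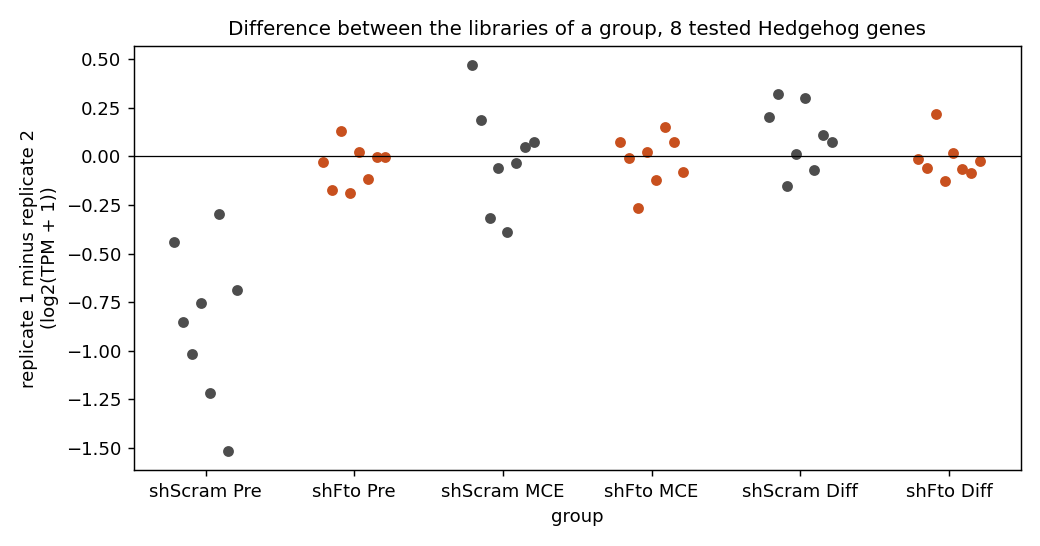
Difference between replicate 1 and replicate 2 of each group (y axis, log2(TPM + 1)) for the 8 genes that passed the filter, each a point; groups are on the x axis, shScram in grey and shFto in orange. In shScram Pre all 8 points lie below 0, from -1.52 to -0.30, and in the other groups no point lies farther from 0 than 0.47.

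The labelled cell type was checked against marker genes. All 7 fibroblast and preadipocyte markers (Col1a1, Col1a2, Pdgfra, Pdgfrb, Thy1, Dlk1 and Vim) were above 1 TPM in all 12 libraries. None of 4 endothelial and none of 4 skeletal muscle markers reached 1 TPM anywhere, and Kdr, Myod1 and the macrophage marker Adgre1 were listed at 0 in every library. Among 4 epithelial markers only Krt8 reached 1 TPM, and of 4 macrophage markers Ptprc and Adgre1 did not, with Cd68 at 3.04 TPM as the highest value of that list.

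No ligand of the pathway was measured at an appreciable level. Shh was listed at 0 in all 12 libraries, Ihh did not exceed 0.190 TPM and Dhh did not exceed 0.207 TPM. Hhip, a surface protein that binds and sequesters the ligands and is itself a target of the pathway, did not exceed 0.0931 TPM in any library and was not tested. The order of levels among the other members was alike in all groups at its ends. Gas1 was the most abundant and Smo the next, while Ptch1, Gli1 and Hhip were the seventh, the eighth and the ninth. Between them, Gli3 was above Sufu at Pre and MCE, and Sufu was above Gli3 at Diff, in both lines. The libraries of neighbors in this order overlapped for Gli3 and Gli2 in shFto MCE, for Gli3 and Boc in shScram Diff, and for Smo, Gli3, Gli2 and Boc with the gene next below each in shScram Pre.

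**Figure D2:**
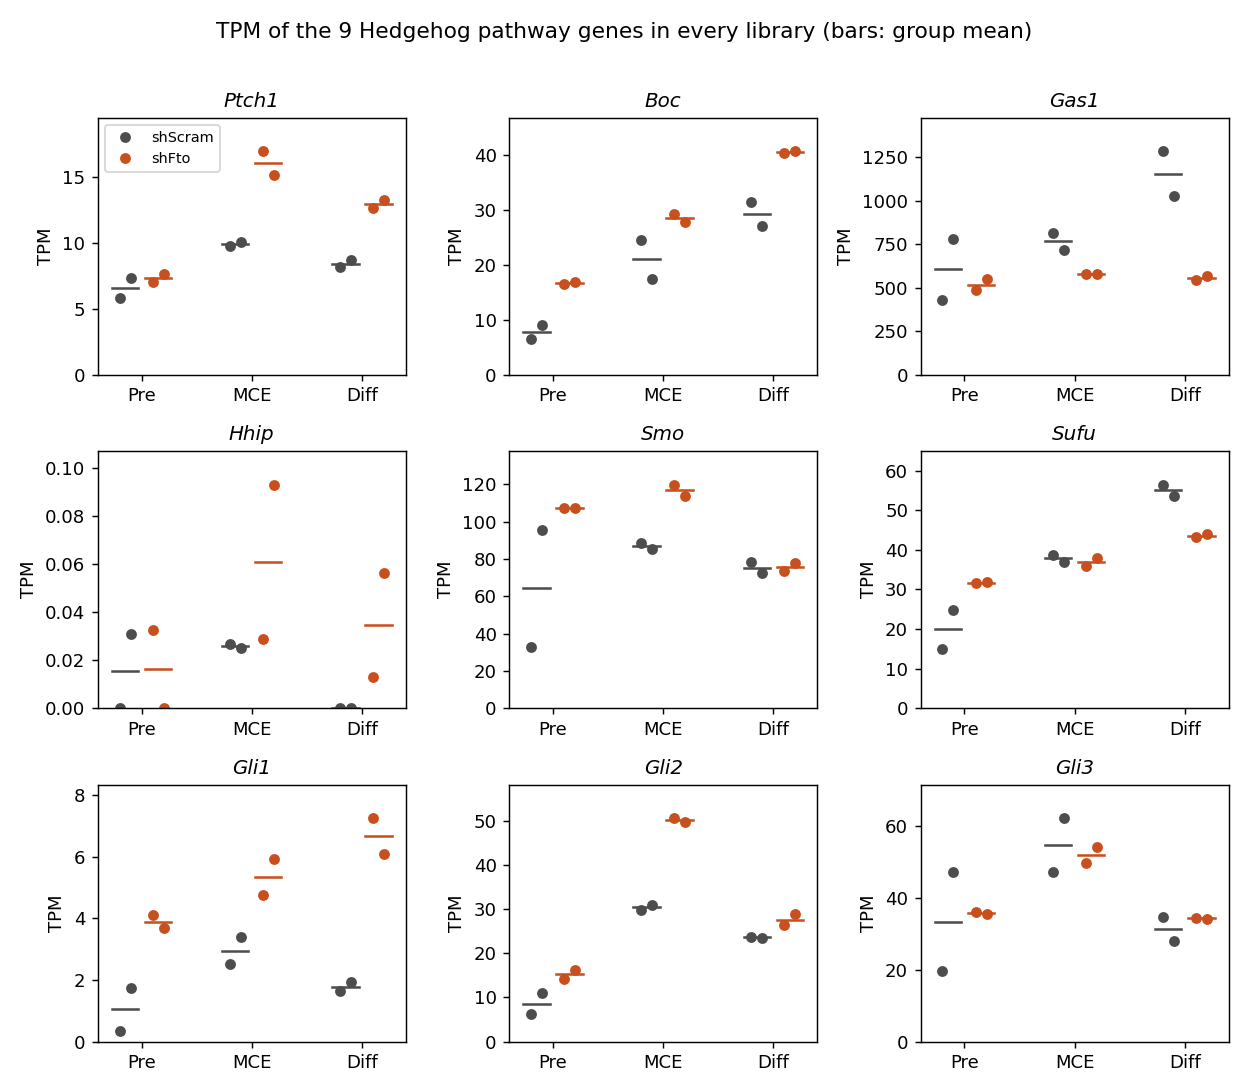
TPM (y axis, a linear scale from 0 in each panel) of the 9 Hedgehog pathway genes at the 3 stages (x axis), with a point for each library, a bar for the mean of 2 libraries, shScram in grey and shFto in orange. At Diff, Gas1 is higher in both shScram libraries than in both shFto libraries, and Gli1, Ptch1 and Boc are lower.

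Ptch1, the receptor that restrains Smo, was higher in shFto than in shScram cells at MCE and Diff. Ptch1 (ENSMUSG00000021466, GRCm38 chromosome 13, 63508328 to 63573598, minus strand) stood at 5.77 and 7.33 TPM in shScram against 6.99 and 7.65 TPM in shFto cells at Pre. At MCE it stood at 9.78 and 10.0 TPM in shScram against 16.9 and 15.1 TPM in shFto cells, and at Diff at 8.18 and 8.64 TPM against 12.6 and 13.2 TPM. The lines overlapped at Pre and were apart at MCE and Diff. The log2 fold change was 0.64 ± 0.14 (SE, n = 2 against 2) at MCE (limma, adjusted p = 0.0158) and 0.56 ± 0.14 at Diff (adjusted p = 0.0238), which is 1.62-fold and 1.54-fold in mean TPM. Over 23 alternative settings these values ranged from 0.53 to 0.72 and from 0.53 to 0.61, each called in 19. The MCE call was lost without any 1 of the MCE libraries. Settings that lost the Diff call included those without Diff replicate 1 of either line and without shFto Diff replicate 2. In bulk RNA, a change in the share of cells that express a gene and a change in RNA per cell cannot be told apart. At Pre the value was 0.15 (adjusted p = 0.448), and it was -0.0019 without shScram Pre replicate 1, when the MCE and Diff calls kept their sizes (adjusted p = 0.00107 and 0.00214).

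The 250 bases before the RefSeq start sites of Ptch1 and Gas1 are shown because these genes were called in opposite directions at Diff, with CpG dinucleotides in capitals (GRCm38.p6, minus strand, chr13:63565736-63565985 for Ptch1 and chr13:60177536-60177785 for Gas1). In the annotation, the Ptch1 window lies in an intron of longer Ptch1 transcripts, and the Gas1 window lies in an exon of Gm48488, a long noncoding RNA on the opposite strand.
Ptch1: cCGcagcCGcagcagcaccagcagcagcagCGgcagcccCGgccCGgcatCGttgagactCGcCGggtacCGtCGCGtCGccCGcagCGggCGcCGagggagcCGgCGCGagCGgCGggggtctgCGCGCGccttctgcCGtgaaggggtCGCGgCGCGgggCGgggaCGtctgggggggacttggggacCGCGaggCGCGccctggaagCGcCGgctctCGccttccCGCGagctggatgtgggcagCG
Gas1: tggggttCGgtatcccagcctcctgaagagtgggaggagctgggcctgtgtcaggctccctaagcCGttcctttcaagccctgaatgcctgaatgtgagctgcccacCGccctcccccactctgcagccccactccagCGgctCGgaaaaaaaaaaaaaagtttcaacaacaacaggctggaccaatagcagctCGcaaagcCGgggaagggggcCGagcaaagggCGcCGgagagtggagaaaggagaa

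The Ptch1 window held 41 CpG and the Gas1 window 10, where the median of 32851 RefSeq promoters was 6. Promoters were found for 7 of the 9 members, and those of Gli1 and Boc are not used here. The Gli motif GACCACCCA was searched on both strands from 250 bases before to 50 after the start, and it was in none of the 7 promoters and in 83 of 32851 promoters (0.253%). That these letters are absent from this window says nothing about binding elsewhere.

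Boc, a co-receptor that presents the ligands to Ptch1, was higher in shFto cells at Pre. Boc (ENSMUSG00000022687, chromosome 16, 44485049 to 44558897, minus strand) stood at 6.37 and 8.99 TPM in shScram against 16.5 and 16.8 TPM in shFto cells at Pre. It stood at 24.5 and 17.4 TPM against 29.2 and 27.7 TPM at MCE, and at 31.3 and 27.1 TPM against 40.3 and 40.6 TPM at Diff. Both shFto libraries were above both shScram libraries at each stage. The log2 fold change at Pre was 1.04 ± 0.19 (limma, adjusted p = 0.00668), or 2.17-fold in mean TPM, and 0.82 without shScram Pre replicate 1 (adjusted p = 0.00555). At MCE it was 0.44 (adjusted p = 0.157) and at Diff 0.46 (adjusted p = 0.127), neither called with 12 libraries, and both were called without shScram Pre replicate 1 (adjusted p = 0.0263 and 0.0203).

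Gas1, a membrane-anchored co-receptor and the most abundant member, was lower in shFto cells at Diff. Gas1 (ENSMUSG00000052957, chromosome 13, 60174405 to 60177365, minus strand) stood at 430.8 and 778 TPM in shScram against 486 and 549 TPM in shFto cells at Pre, and at 815 and 716 TPM against 577 and 580 TPM at MCE. At Diff it stood at 1284 and 1027 TPM against 544 and 566 TPM. The shFto values lay between the shScram values at Pre and below them at MCE and Diff. Its log2 fold change at Diff was -1.05 ± 0.25 (limma, adjusted p = 0.0167), a mean of 0.480 times that of shScram cells. That call was lost without Diff replicate 1 of either line and without shFto Diff replicate 2. Over 23 alternative settings the log2 fold change at Diff ranged from -1.24 to -0.89 and was called in 20. At MCE it was -0.40 (adjusted p = 0.332) and at Pre -0.17 (adjusted p = 0.625), and without shScram Pre replicate 1 these became -0.40 (adjusted p = 0.0146) and -0.59 (adjusted p = 0.00908). Gm48488 on the opposite strand shares 684 bases with Gas1, at a mean of 3.35 TPM, and whether the quantification used strand is not stated in the sources used here.

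Smo, the membrane protein that passes the signal on, was not called at any stage with 12 libraries. Smo (ENSMUSG00000001761, chromosome 6, 29735503 to 29761365, plus strand) stood at 32.8 and 95.6 TPM in shScram against 107.3 and 107.6 TPM in shFto cells at Pre, the former pair being the widest apart of the 8 members tested in TPM ratio after Gli1. It stood at 88.5 and 85.6 TPM against 119.8 and 113.7 TPM at MCE, and at 78.2 and 72.5 TPM against 73.4 and 78.0 TPM at Diff. The lines were apart at Pre and MCE and overlapped at Diff. The log2 fold change of 0.92 at Pre (95% interval 0.08 to 1.77, adjusted p = 0.0900) shrank to 0.17 without shScram Pre replicate 1 (adjusted p = 0.160). At MCE the value of 0.42 missed the threshold with 12 libraries (adjusted p = 0.518) and passed it without that library (adjusted p = 0.000703).

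Sufu, which binds the Gli factors and holds them inactive, was higher in shFto cells at Pre. Sufu (ENSMUSG00000025231, chromosome 19, 46396896 to 46488804, plus strand) stood at 15.0 and 24.7 TPM in shScram against 31.7 and 31.8 TPM in shFto cells at Pre, at 38.8 and 36.8 TPM against 35.9 and 38.0 TPM at MCE, and at 56.5 and 53.7 TPM against 43.2 and 43.9 TPM at Diff. The shFto libraries were thus above the shScram libraries at Pre, overlapped them at MCE and were below them at Diff. Its log2 fold change was 0.69 ± 0.19 at Pre (limma, adjusted p = 0.0306) and 0.35 without shScram Pre replicate 1 (adjusted p = 0.0154). At Diff it was -0.33 (adjusted p = 0.267), and it passed the threshold without that library (adjusted p = 0.00382). The Pre call was among the less stable ones, passing in 10 of 23 alternative settings, over which the log2 fold change ranged from 0.23 to 1.03.

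Gli1, the activator whose own transcript is a target of the pathway, was higher in shFto cells at Pre and Diff. Gli1 (ENSMUSG00000025407, chromosome 10, 127329882 to 127341974, minus strand) stood at 0.361 and 1.75 TPM in shScram against 4.12 and 3.68 TPM in shFto cells at Pre. It stood at 2.52 and 3.39 TPM against 4.77 and 5.93 TPM at MCE, and at 1.64 and 1.93 TPM against 7.25 and 6.09 TPM at Diff. The lines did not overlap at any stage, although all values were low. In log2 terms the change was 1.34 ± 0.30 at Pre (limma, adjusted p = 0.0143) and 1.46 ± 0.30 at Diff (adjusted p = 0.00889), or 3.69-fold and 3.73-fold in mean TPM. With shScram Pre replicate 1 left out, the Pre value was 0.83 (adjusted p = 0.0170) and that at Diff was called as before (adjusted p = 0.0001). At MCE the value was 0.69, not called with 12 libraries (adjusted p = 0.160) and called without that library (adjusted p = 0.0102). Of the overlapping genes, Arhgap9 shares 62 bases with Gli1 on the opposite strand at a mean of 0.197 TPM, and Gm47200 lies antisense to it at a mean of 0.00606 TPM.

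Gli2, the main activator among the Gli factors that are present before signaling, was higher in shFto cells at Pre. Gli2 (ENSMUSG00000048402, chromosome 1, 118834132 to 119053619, minus strand) stood at 6.16 and 11.1 TPM in shScram against 14.1 and 16.3 TPM in shFto cells at Pre, at 29.7 and 31.0 TPM against 50.5 and 49.7 TPM at MCE, and at 23.7 and 23.5 TPM against 26.3 and 28.8 TPM at Diff. Both shFto libraries were above both shScram libraries at each stage. Its log2 fold change was 0.80 ± 0.21 at Pre (limma, adjusted p = 0.0267) and 0.42 without shScram Pre replicate 1 (adjusted p = 0.0182). At MCE it was 0.70 ± 0.21, just above the threshold (adjusted p = 0.0522), and called without that library (adjusted p = 0.000166). At Diff it was 0.21 (adjusted p = 0.537). Over 23 alternative settings the Pre value of Gli2 ranged from 0.21 to 1.17 and was called in 18.

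Gli3, best known for its truncated repressor form, was not called at any stage with 12 libraries or without shScram Pre replicate 1. Gli3 (ENSMUSG00000021318, chromosome 13, 15463235 to 15730026, plus strand) stood at 19.7 and 47.1 TPM in shScram against 36.1 and 35.5 TPM in shFto cells at Pre, at 47.1 and 62.1 TPM against 49.5 and 54.0 TPM at MCE, and at 34.6 and 27.9 TPM against 34.5 and 34.1 TPM at Diff. The lines overlapped at every stage. The 95% intervals of the log2 fold change were -0.52 to 0.97 at Pre, -0.81 to 0.68 at MCE and -0.61 to 0.88 at Diff, so changes within these ranges could not be told from none.

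**Figure D3:**
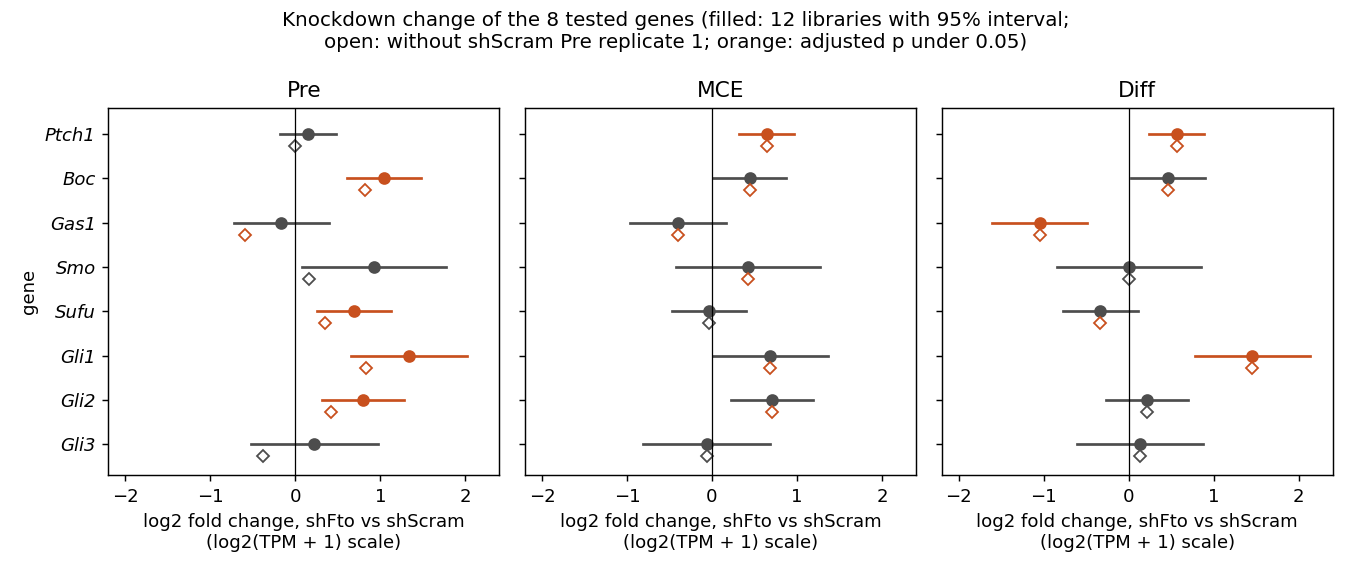
Log2 fold change of shFto against shScram cells (x axis, log2(TPM + 1) scale) for the 8 members that passed the filter (y axis) at Pre, MCE and Diff. Filled points with bars show the estimate and 95% interval from 12 libraries, open diamonds the estimate without shScram Pre replicate 1, and orange an adjusted p under 0.05. Gli1 is called at Pre (1.34) and Diff (1.46), and Gas1 is called lower at Diff (-1.05).

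Of the 8 members tested, 4 were called higher and 0 lower in shFto cells at Pre, where 15.9% of all genes tested were called higher and 12.3% lower. At MCE 1 member was called higher and 0 lower, against 10.5% and 7.26% of all genes. At Diff 2 were called higher and 1 lower, against 11.9% and 9.31%. The median log2 fold change of the 8 members was 0.74 at Pre, 0.43 at MCE and 0.18 at Diff, beside 0.08, 0.05 and 0.03 for all genes tested. Leaving out shScram Pre replicate 1, the median at Pre was 0.26, beside 0.00 for all genes. Then 4 members were called higher and 1 lower at Pre, 5 and 1 at MCE, and 3 and 2 at Diff, while 29.0%, 41.0% and 45.7% of all genes were called in either direction. At Diff, leaving out shScram Diff replicate 1, the library with conflicting labels, left 0 of 8 members called (limma), beside 11.2% of all genes, with 3 at an unadjusted p under 0.05 and log2 fold changes of 1.38 for Gli1, 0.53 for Ptch1 and -0.89 for Gas1. Leaving out both doubted libraries left Gli1, Ptch1 and Boc called higher and Gas1 and Sufu called lower, beside 40.1% of all genes.

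Markers of adipocytes moved with the same contrast. The summed TPM of 8 adipocyte markers (Adipoq, Fabp4, Pparg, Cebpa, Cd36, Lpl, Plin1 and Cidec) was 192 and 133 with shScram against 268 and 299.5 with shFto at Pre, 376 and 374 against 266 and 274 at MCE, and 1524 and 1515 against 456 and 417 at Diff. Lpl was the most abundant of them over the 12 libraries, while Fabp4 reached the highest single value at 876 TPM in shScram cells at Diff. At Diff 6 of these 8 were called lower with shFto and 0 higher (median log2 difference -3.11), beside 9.31% and 11.9% of all genes. At MCE 5 were called lower and 1 higher (median -0.99), beside 7.26% and 10.5%. At Pre 0 were called lower and 1 higher, beside 12.3% and 15.9%. The 7 fibroblast and preadipocyte markers summed at Diff to 9328 and 8925 TPM with shScram against 7498 and 7905 TPM with shFto. The lower sum came from Vim, the most abundant of them (4155 and 4072 TPM against 2094 and 2238 TPM), and Col1a2, while the means of the other 5 were higher with shFto and the median log2 difference was 0.25. With 12 libraries 1 was called higher (Thy1) and 1 lower (Vim), beside 21.2% of all genes, and leaving out shScram Pre replicate 1 gave 4 higher and 1 lower, beside 45.7%. At Pre, with 12 libraries, 2 of these 7 markers were called higher and 2 lower, beside 28.2% of all genes (median log2 difference 0.24). That median was -0.38 without shScram Pre replicate 1. At MCE 1 was called higher and 2 lower, beside 17.8% of all genes (median 0.34). The part of these changes in the results on the Hedgehog genes was not tested.

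From Pre to MCE, each member called with 12 libraries was higher at MCE, 5 of 8 in shScram and 3 of 8 in shFto cells. In shScram cells Gli2 rose by 1.75, Boc by 1.34, Gli1 by 1.02, Sufu by 0.94 and Ptch1 by 0.54 on the log2 scale, so that 5 members were called higher and 0 lower, against 12.2% and 26.9% of all genes. In shFto cells Gli2 rose by 1.66, Ptch1 by 1.03 and Boc by 0.74, with 3 called higher and 0 lower, against 8.80% and 19.9% of all genes. The adjusted p from limma were 0.000369 and 0.000535 for Gli2 in the shScram and shFto lines, and 0.000866 for Ptch1 in shFto cells. The median change of all genes tested was -0.17 in shScram and -0.18 in shFto cells, and it was 0.0035 and 0.0022 after median-ratio scaling, so that relative to all genes the rises were larger by about that amount. Under that scaling Gli2 rose by 1.97 and 1.89. Without shScram Pre replicate 1, the changes in shScram cells were 1.38 for Gli2, 1.12 for Boc, 0.59 for Sufu and 0.39 for Ptch1, all called, and 0.51 for Gli1, which missed the threshold (adjusted p = 0.0727), while the values of Smo (-0.13) and Gas1 (-0.027) were then below 0 and not called. In shFto cells Gli3 and Sufu were then called as well. The share of all genes called in either direction was then 48.1% in shScram and 51.1% in shFto cells.

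From MCE to Diff, Gli2 fell by 0.84 in shFto cells (limma, adjusted p = 0.0192) and no other member was called in either line with 12 libraries. In shScram cells 0 of 8 members were called, against 20.0% of all genes called higher and 5.22% lower. There were 4 members at an unadjusted p under 0.05, a count not comparable with these shares. In shFto cells 1 was called lower and 0 higher, against 20.2% called higher and 6.48% lower. That call of Gli2 was lost without any 1 of the shFto MCE or shFto Diff libraries. Over 23 alternative settings its change lay between -1.05 and -0.78 and was called in 19. The median change of all genes was 0.23 in shScram and 0.17 in shFto cells, and after median-ratio scaling it was 0.010 and -0.0030. Under that scaling Ptch1 was also called lower, at -0.46 in shScram and -0.49 in shFto cells, as were Gli2 and Gli3 in shScram cells at -0.62 and -1.05. Without shScram Pre replicate 1, 7 members were called in shScram cells, namely Boc, Gas1 and Sufu higher and Smo, Gli1, Gli2 and Gli3 lower, and 6 in shFto cells, namely Boc and Sufu higher and Smo, Gli2, Gli3 and Ptch1 lower. All genes were then called at 52.0% in shScram and 50.9% in shFto cells. Gas1 stood at 815 and 716 TPM at MCE and 1284 and 1027 TPM at Diff in shScram cells, without overlap, and its change of 0.59 had an adjusted p of 0.116 with 12 libraries and 0.00157 without that library.

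Whether the effect of the knockdown differed between stages was tested as an interaction. With 12 libraries limma called 0 of 8 members in each of the 3 pairs of stages, against 5.11% of all genes between MCE and Pre, 2.49% between Diff and MCE and 7.67% between Diff and Pre. At an unadjusted p under 0.05 there were 2, 0 and 2 members. Sufu came nearest to the threshold, with a difference of -1.02 ± 0.27 between Diff and Pre (adjusted p = 0.0564). Gas1 differed by -0.65 between Diff and MCE (adjusted p = 0.445) and Gli1 by 0.12 between Diff and Pre (95% interval -0.84 to 1.08), which became 0.63 without shScram Pre replicate 1 (adjusted p = 0.154) and -0.39 without shScram Pre replicate 2. Without shScram Pre replicate 1, when 14.1%, 17.1% and 17.8% of all genes were called, Ptch1 was called at 0.64 between MCE and Pre. Gas1 (-0.65), Gli2 (-0.49) and Smo (-0.41) were then called between Diff and MCE, and Ptch1 (0.57) and Sufu (-0.68) between Diff and Pre. The effects called at only a single stage with 12 libraries are thus not shown to be particular to that stage.

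The other pathway genes were taken from 5 lists. Among 9 genes for ligands and their release, 3 passed the filter. Disp2, of the family of membrane proteins that release the ligands, stood at 0.528 and 1.37 TPM in shScram against 2.17 and 2.21 TPM in shFto cells at Pre, but at 7.95 and 7.25 TPM against 2.29 and 2.09 TPM at MCE and 9.59 and 9.25 TPM against 6.17 and 6.41 TPM at Diff. The lines were apart at each stage, in the opposite order at Pre. Disp2 was higher in shFto cells by 0.75 at Pre (limma, adjusted p = 0.0268) and lower by a log2 fold change of -1.43 at MCE (adjusted p = 0.00159). The Pre value was 0.43 without shScram Pre replicate 1 (adjusted p = 0.0715). At Diff its log2 fold change was -0.52, not called with 12 libraries (adjusted p = 0.107) and called without that library (adjusted p = 0.00985). Disp1 and Hhat, the acyltransferase of the ligands, were not called at any stage with 12 libraries, and without shScram Pre replicate 1 Hhat was called higher at Diff (0.70, adjusted p = 0.0203).

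Among 4 other receptors and surface proteins, 1 passed the filter. Cdon, a co-receptor related to Boc, was lower in shFto cells at Diff, with 77.8 and 76.8 TPM in shScram against 33.1 and 35.2 TPM in shFto cells. Its log2 fold change was -1.16 at Diff (limma, adjusted p = 0.000636), -0.46 at MCE (adjusted p = 0.0560, and 0.00819 without shScram Pre replicate 1) and -0.13 at Pre (adjusted p = 0.498).

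Of 9 Gli target genes, 6 passed the filter, and 3 were called higher at each of the 3 stages, namely Foxf2, Bcl2 and Snai1, where 28.2%, 17.8% and 21.2% of all genes were called in either direction. At Pre and Diff 2 were called lower, Ccnd1 and Ccnd2, and at MCE 1, Ccnd1. Over the 6 targets, the median log2 change was 0.31 at Pre, 0.54 at MCE and 0.34 at Diff, and that at Pre was -0.02 without shScram Pre replicate 1, when 3 were called higher and 3 lower, beside 29.0% of all genes. Foxf2, a forkhead transcription factor of mesenchymal cells, stood at 6.11 and 13.1 TPM in shScram against 37.2 and 36.2 TPM in shFto cells at Pre, at 15.4 and 15.8 TPM against 34.6 and 37.2 TPM at MCE, and at 16.8 and 14.1 TPM against 31.4 and 35.8 TPM at Diff. Snai1, a repressor of epithelial genes, stood at 14.6 and 42.0 TPM against 100.5 and 91.3 TPM, at 155.9 and 158.3 TPM against 427.8 and 454.0 TPM, and at 63.1 and 68.9 TPM against 146.0 and 168.4 TPM at these stages. Their lines were apart throughout, with log2 fold changes of 1.08 to 1.91 for Foxf2 and 1.24 to 1.90 for Snai1. Leaving out shScram Pre replicate 1 gave 1.42 and 1.17 at Pre, both called (adjusted p = 5.5e-05 and 5.4e-05). The call of Snai1 at Diff (adjusted p = 0.0421) passed in 11 of 23 alternative settings.

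Bcl2, an inhibitor of apoptosis, was higher in shFto cells by 0.65, 1.09 and 0.72 at Pre, MCE and Diff (limma, adjusted p = 0.0219, 0.00238 and 0.0151). Ccnd1, the cyclin of the G1 phase, went the other way. Ccnd1 stood at 168.7 and 238.7 TPM in shScram against 116.5 and 123.1 TPM in shFto cells at Pre, at 185.2 and 168.4 TPM against 61.2 and 58.0 TPM at MCE, and at 197.1 and 186.8 TPM against 79.1 and 82.7 TPM at Diff. Its log2 fold changes were -0.74, -1.55 and -1.24 (adjusted p = 0.0121, 0.000271 and 0.000767). The targets in this list were therefore called in both directions.

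All 14 genes of the cilium and Gli control list passed the filter. At Pre 2 were called higher (Kif7 and Tulp3) and 2 lower (Ift88 and Dync2h1), at MCE 0 were called with 4 at an unadjusted p under 0.05 (limma), and at Diff 0 were higher and 1 was lower (Ift122). Of all genes, 28.2%, 17.8% and 21.2% were called in either direction at these stages. Without shScram Pre replicate 1, 1 was called higher and 3 lower at Pre, 1 and 5 at MCE, and 2 and 4 at Diff, when 29.0%, 41.0% and 45.7% of all genes were called. With 12 libraries the median log2 fold changes were -0.04, -0.14 and -0.02, and that at Pre was -0.15 without shScram Pre replicate 1. Ift88, a subunit of the transport complex that builds cilia, stood at 19.6 and 8.77 TPM in shScram against 6.24 and 5.92 TPM in shFto cells at Pre. Its log2 fold change at Pre was -1.0 (limma, adjusted p = 0.0332), and -0.47 without shScram Pre replicate 1 (adjusted p = 0.0413). At MCE and Diff its values were -0.49 and -0.73, not called with 12 libraries and called without that library (adjusted p = 0.00879 and 0.000826). The call at Pre with all libraries passed in 11 of 23 alternative settings.

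All 12 genes of the list of Gli kinases and degradation passed. At Pre 4 were called higher and 2 lower, and at MCE and Diff 3 higher and 0 lower at each stage, beside 28.2%, 17.8% and 21.2% of all genes. Without shScram Pre replicate 1, 4 were called higher and 2 lower at Pre, 7 and 1 at MCE, and 5 and 3 at Diff, beside 29.0%, 41.0% and 45.7% of all genes. With 12 libraries the median log2 fold changes were 0.05, 0.36 and 0.15, and that at Pre was 0.04 without shScram Pre replicate 1. Gsk3a, a kinase that phosphorylates the Gli factors, stood at 25.8 and 59.1 TPM in shScram against 82.1 and 80.2 TPM in shFto cells at Pre, with a log2 fold change of 1.03 (limma, adjusted p = 0.0365) that became 0.45 without shScram Pre replicate 1 (adjusted p = 0.0217) and passed in 10 of 23 alternative settings. At MCE and Diff its values were 0.48 and 0.51, not called with 12 libraries and called without that library (adjusted p = 0.00356 and 0.00233).

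**Figure D4:**
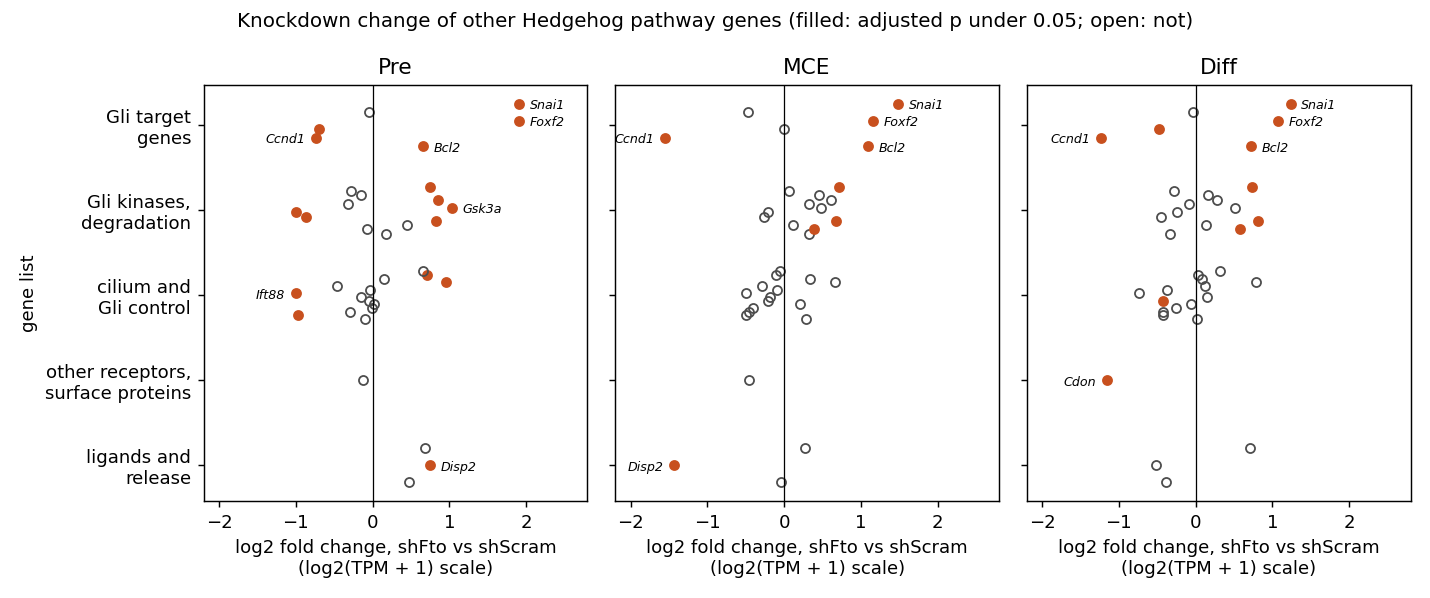
Log2 fold change of shFto against shScram cells (x axis, log2(TPM + 1) scale) at Pre, MCE and Diff for the genes of 5 pathway lists (y axis) that passed the filter, each a point. Filled points have an adjusted p under 0.05, and those also called with a fold change over 2 at some stage carry their names. Foxf2, Bcl2 and Snai1 lie to the right at each stage, and Ccnd1 lies to the left.

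The genes whose levels followed those of a member most closely over the 12 libraries were listed as a description. All pairs share the same libraries, groups and scaling, shScram Pre replicate 1 included. Of 10800 genes with a mean of at least 5 TPM, Pgm1, Gys1 and Egln1 were most like Ptch1 (r = 0.989, 0.988 and 0.984), and Bcl3, Fam110a and Cdr2l were most like Gli1 (r = 0.966, 0.960 and 0.959). Ucp2, Sdc1 and H1f2 were most like Gli2 (r = 0.986, 0.984 and 0.983), and Lix1l, Cep68 and Cers5 were most like Gas1 (r = 0.972, 0.957 and 0.957). For Smo these were Nubp2, Timm50 and Chpf, for Gli3 Park7, Dctpp1 and Pithd1, for Sufu Mapkbp1, Tom1l2 and Stat5b, and for Boc Adamts2, Cerk and Ttc39c, at r of 0.945 to 0.990. Among the members themselves, Ptch1 and Gli2 correlated at r = 0.91 and Sufu and Boc at r = 0.88, while Gas1 and Gli1 correlated at r = -0.27.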

How the data were processed

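Total RNA was chemically fragmented, poly(A)-tailed, reverse-transcribed and sequenced as paired ends. Per the submitters' processing notes and the study's methods, reads were trimmed (Trim Galore 0.6.5) and mapped to GRCm38 (HISAT2 2.1.0). The authors quantified expression as TPM with StringTie 2.1.4 on genes of Ensembl release 102 and deposited it in 1 table. Their own test used DESeq2 1.30.1 on counts, which are not used here. TPM keeps no depth, so precision is limited by 2 libraries per group. Between 20853 and 24018 genes were above 0 in a library.

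Libraries were grouped by title. From TPM, log2(TPM + 1) was computed, and genes with at least 1 TPM in at least 2 libraries entered a limma 3.58.1 fit under R 4.3.3 (a mean per group over 12 libraries, eBayes with a trend, 6 residual degrees of freedom, Benjamini-Hochberg). The step was checked on simulated data. Other steps used Python 3.11.15. GENCODE M21 gave coordinates for 99.4% of genes, and RefSeq the promoters. No 2 libraries held identical values.

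The members, lists and tests were chosen with earlier results of these data known, so they are no independent evidence. All members are named. From the other lists, genes called in a knockdown contrast with a fold change over 2 are named with values, and genes most like a member are the 3 with the highest r. Other pathway genes were named after their values were seen. The alternatives were another pseudocount (0.1), filters, scalings, estimates of the spread, the libraries fitted, the replicate number as a block and each library left out. A GC correction, the fit without both doubted libraries and the interaction between Diff and Pre were added after seeing the data. Samples treated with rhein and m6A immunoprecipitates are not used here. A gene of the pathway lists is not reported here, and the counts of its lists leave it out.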

Additional observations from a re-analysis of the deposited data

Results flagged for a closer look

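Among the 8 members and the 36 other pathway genes tested, 9 stood out because the difference of the knockdown effect between a pair of stages was called, or because the lines were apart in opposite order at those stages. The shFto libraries had more Sufu than the shScram libraries at Pre and less at Diff, a difference of -1.02 between the log2 fold changes that missed the threshold (limma interaction, adjusted p = 0.0564). Disp2 went from higher at Pre to lower at MCE, with a difference of -2.18 between MCE and Pre (adjusted p = 0.00389) and of -1.26 between Diff and Pre (adjusted p = 0.0297). The former was called in 22 of 22 alternative settings and the latter in 9 of 22. For Cdon the log2 fold change was below 0 at each stage, and it differed by -1.03 between Diff and Pre (adjusted p = 0.0178). Without shScram Pre replicate 1, these differences were -0.68 for Sufu, -1.86 and -0.95 for Disp2, and -1.10 for Cdon, all past the threshold. Ccnd2, a cyclin, was lower in shFto cells at Pre but not called at MCE, a difference of 0.69 (adjusted p = 0.0377) that was called in 9 of 23 alternative settings. Csnk1a1, a casein kinase, differed by 0.65 between Diff and Pre (adjusted p = 0.0470) and was called in 6 of 23. For the other 4 genes the order of the lines turned and the difference was not called with 12 libraries. Disp1 differed by -0.87 between Diff and Pre. Kif3a differed by 0.40 between Diff and MCE and by 0.58 between Diff and Pre (0.28 without shScram Pre replicate 1). Btrc differed by -0.66 and -0.51 in these comparisons. Prkar1a differed by 0.34 between MCE and Pre and by -0.36 between Diff and MCE. Leaving out shScram Pre replicate 1, both differences of Btrc (adjusted p = 0.00801 and 0.0411) and the second of Prkar1a (adjusted p = 0.0253) were called.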

How the results depend on the processing

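Of 1830 recomputed log2 fold changes, between the lines for 16 named genes and between stages for the 8 members, 1545 kept their direction and their side of the threshold, 126 lost the call, 139 gained it and 20 changed sign. Of 1098 recomputed interactions, for the 8 members and 8 other pathway genes, 953 kept both, 50 lost the call, 63 gained it and 32 changed sign. In the order Pre, MCE and Diff of the knockdown, MCE against Pre in shScram and shFto, Diff against MCE in shScram and shFto, and the interactions MCE minus Pre, Diff minus MCE and Diff minus Pre, the counts of members called were 4, 1, 3, 5, 3, 0, 1, 0, 0 and 0. With each library left out in turn they ranged over 1 to 6, 0 to 6, 0 to 5, 3 to 8, 2 to 5, 0 to 7, 0 to 6, 0 to 7, 0 to 3 and 0 to 6, while the share of all genes called ranged over 7.32 to 62.8%, 7.61 to 41.0%, 10.3 to 45.7%, 20.6 to 64.7%, 16.0 to 51.1%, 10.1 to 52.0%, 12.6 to 51.0%, 1.60 to 52.5%, 0.783 to 17.1% and 3.10 to 51.0%. The count at Pre was 1 without either shFto Pre library, that at MCE 0 without any 1 of the 4 MCE libraries, and that at Diff 0 without shScram Diff replicate 1 or shFto Diff replicate 1 and 1 without shFto Diff replicate 2. Leaving out shScram Pre replicate 2 in place of replicate 1 gave 6 at MCE and 5 at Diff, as without replicate 1. When the fit held just the libraries of its contrast, the counts were 0 at Pre (2 at an unadjusted p under 0.05), 4 at MCE, 5 at Diff, 0 and 5 for MCE against Pre, 4 and 6 for Diff against MCE, and 3 for the interaction Diff minus MCE, beside 0.00%, 37.0%, 41.4%, 3.16%, 50.1%, 40.4%, 54.4% and 16.9% of all genes. Without both doubted libraries they were 6 at MCE, 5 at Diff, 5 for MCE against Pre in shFto, 5 and 5 for Diff against MCE, and 1, 2 and 1 for the interactions, beside 41.7%, 40.1%, 52.2%, 45.8%, 51.8%, 14.6%, 14.7% and 15.0% of all genes. The GC correction gave 4 at MCE, 3 and 3 for Diff against MCE, and 1 and 1 for the interactions Diff minus MCE and Diff minus Pre, beside 26.0%, 34.8%, 36.2%, 5.33% and 11.5% of all genes. Both median-ratio scaling and quantile normalization gave 2 at MCE, 3 and 2 for Diff against MCE and 1 for the interaction Diff minus Pre, beside 18.5%, 22.7%, 28.1% and 7.88% of all genes with the former and 16.7%, 17.8%, 22.4% and 8.29% with the latter. No filter gave 2 at Pre (9.96% of all genes), a mean of at least 5 TPM gave 2 at MCE (20.4%), and the study's rule, a fold change over 2 at an unadjusted p under 0.05, gave 2 at Pre (15.0%) and 0 at MCE (9.01%).

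The values that changed sign were not called with 12 libraries. Quantile normalization gave -0.028 for Ptch1 at Pre, -0.050 for Smo at Diff and -0.079 for Gli1 from MCE to Diff in shFto cells, and the GC correction gave -0.17 for Smo at Diff and -0.080 for Gas1 from Pre to MCE in shScram cells. Without both doubted libraries the values were -0.0019 for Ptch1 and -0.38 for Gli3 at Pre, and -0.13 for Smo and -0.027 for Gas1 from Pre to MCE in shScram cells. With each library left out in turn, Ptch1 ranged from -0.0019 to 0.30, Gli3 from -0.38 to 0.83 and Gas1 from -0.59 to 0.26 at Pre. At MCE Gli3 ranged from -0.26 to 0.13 and Sufu from -0.071 to 0.0081, and at Diff Smo ranged from -0.046 to 0.061 and Gli3 from -0.014 to 0.29. From Pre to MCE in shScram cells Smo ranged from -0.13 to 1.38 and Gas1 from -0.027 to 0.83. Among the interactions MCE minus Pre, the GC correction gave 0.014 for Smo, 0.41 for Gli2, 0.31 for Gas1 and -0.30 for Btrc, and the fit without both doubted libraries gave 0.25 for Smo, 0.28 for Gli2, 0.32 for Gli3, 0.19 for Gas1 and -0.13 for Kif3a. With each library left out in turn, Smo ranged from -1.26 to 0.25, Gli2 from -0.47 to 0.28, Gli3 from -0.90 to 0.32, Gas1 from -0.66 to 0.19 and Kif3a from -0.13 to 0.47. For Diff minus MCE, Ptch1 was 0.015 under quantile normalization, and Boc was -0.044 under the GC correction and ranged from -0.22 to 0.25 with a library left out. For Diff minus Pre, Gli1 was -0.27 with the pseudocount of 0.1, Gli3 was 0.048 under quantile normalization and 0.67 without both doubted libraries, and Prkar1a was 0.061 under median-ratio scaling and 0.0048 under quantile normalization. With a library left out, these ranged from -0.39 to 0.63 for Gli1, from -0.70 to 0.52 for Gli3 and from -0.093 to 0.072 for Prkar1a. The causes were not tested. The replicate block left each of the 10 counts as it was (4 at Pre, 1 at MCE and 3 at Diff). The numbers do not pair the libraries, since replicate differences correlated at -0.29 to 0.17 over 15 pairs of groups, with 2 over 0.1.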
